A study of Mus musculus with 40 samples.

Results

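The respiratory chain genes described here are the subunits of complexes I to V of the inner mitochondrial membrane, taken by symbol from the count table: Nduf genes with a subunit letter and number, Sdha to Sdhd, Uqcr genes, Cyc1, Cox4 to Cox8 genes, Atp5 genes, and the mitochondrially encoded mt-Nd, mt-Co, mt-Cytb and mt-Atp genes. The rule found 104 of the 26792 symbols, 13 encoded by the mitochondrial genome and 91 by the nuclear genome. By symbol, the nuclear members fell into 37 of complex I, 4 of complex II, 11 of complex III, 18 of complex IV and 21 of complex V, and the mitochondrial members into 7 of complex I, 1 of complex III, 3 of complex IV and 2 of complex V. The rule also took in 6 processed pseudogenes and 3 genes that are not subunits of their complex (Atp5s, Atp5sl and Cox7a2l), which leaves 82 nuclear subunit genes. Ndufa4 stays under complex I because of its symbol, although its protein is now placed in complex IV.

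The chain passes electrons from NADH (complex I) and succinate (complex II) through complexes III and IV to oxygen, and complex V uses the proton gradient that this builds to make ATP. Messages of the nuclear genes are read by cytosolic ribosomes and their proteins are imported, whereas messages of the mitochondrial genes are made and read inside the organelle, by mitochondrial ribosomes with their own set of ribosomal proteins. Complex II has no mitochondrially encoded subunit. Astrocytes are known for strong glycolysis, and they also run a full respiratory chain.

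RNA was measured in hypothalami dissected from Aldh1l1-eGFP-L10a mice, in which the astrocyte gene Aldh1l1 drives ribosomal protein L10a fused to a green fluorescent protein, so that translating ribosome affinity purification (TRAP) recovers messages on tagged cytosolic ribosomes. Each numbered sample gave a pull-down library (the immunoprecipitate) and a library of the supernatant. All mice carried the transgene; 7 samples came from orchiectomised mice on a high-fat diet for 4 weeks (GDX-HFD), 6 from sham-operated mice on the same diet (Sham-HFD) and 7 from sham-operated mice on chow (Sham-Chow), each in both fractions. Ages were not in the labels, an orchiectomised group on chow was not analysed here, and no label ties a sample number to a single mouse, so each p-value reflects only how much these samples vary, which may be technical.

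The 40 libraries had totals of 7714834 to 20792175 in the 20 pull-downs, against 8739276 to 12931869 in the 20 supernatants. Aldh1l1 averaged 155 ± 22.1 CPM in the pull-downs, against 5.27 ± 4.01 CPM in the supernatants (CPM, counts scaled by library size and TMM factor to a common total and not divided by gene length, since each message gives a tag near its end; SD over 20 libraries each). Of the marker lists, all 12 astrocyte and all 7 endothelial markers were higher in the pull-downs, as were 8 of 10 mural markers, and all 12 neuron, all 8 oligodendrocyte, all 8 microglia and all 5 red blood cell markers were lower. Oligodendrocyte precursor markers went both ways (3 of 5 higher and 2 lower), as did those of tanycytes and ependymal cells (2 of 6 higher and 2 lower). Gm42418, which overlaps a ribosomal RNA repeat, took more than 10% of the counts in 4 pull-downs: GDX-HFD samples 11 and 22, Sham-HFD sample 1 and Sham-Chow sample 8. In such bulk samples, fewer cells of a type and less RNA per cell cannot be told apart.

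The library kit reads a tag near the 3′ end of polyadenylated RNA, so the ends of the mitochondrial genes are shown for the 3 members with the largest differences between the fractions, for mt-Co1 and for the member with the smallest; where the tags lie was not measured here. In GENCODE M21 on GRCm38, 3 of the 13 mitochondrial members, mt-Cytb, mt-Nd4 and mt-Co3, end in a lone T, a stop codon that the added poly(A) tail completes, and the other 10 end in a complete stop. The last 30 bases are written 5′ to 3′ on the strand of the gene, with the stop letters in capitals.
mt-Cytb, chrM:14145-15288, plus strand: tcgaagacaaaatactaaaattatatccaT
mt-Nd4, chrM:10167-11544, plus strand: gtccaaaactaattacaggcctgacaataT
mt-Atp6, chrM:7927-8607, plus strand: gtaagcctatatctacatgataatacaTAA
mt-Co1, chrM:5328-6872, plus strand: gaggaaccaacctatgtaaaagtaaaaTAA
mt-Nd6, chrM:13552-14070, minus strand: tttattattatcgagattactcgagatTAA
mt-Nd6 is the only member on the minus strand, and its end overlaps mt-Nd5 by 14 bases. The strand setting of the counting is not given in the sources used here, so reads of mt-Nd5 and mt-Nd6 at their shared end cannot be assigned with certainty. mt-Atp8 overlaps mt-Atp6 by 43 bases and mt-Nd4l overlaps mt-Nd4 by 7 bases, and each pair is known to lie on 1 shared message, so the end of mt-Atp8 or mt-Nd4l is not the end of its message.

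The mitochondrial and the nuclear genes of the chain split between the fractions. The 13 mitochondrial members together made up 0.375% to 0.936% of a pull-down library, with a median of 0.473%, against 13.5% to 25.3% of a supernatant library, with a median of 16.0%. The 91 nuclear members made up 1.60% to 3.002% of a pull-down library, with a median of 2.21%, against 1.46% to 2.49% of a supernatant library, with a median of 1.96%. The highest pull-down lay far below the lowest supernatant for the mitochondrial sum, and the ranges of the nuclear sum overlapped. Counted over nuclear encoded RNA only, the order of the nuclear sum turned round, with 2.18% ± 0.313 of the non-mitochondrial counts in pull-downs, against 2.59% ± 0.380 in supernatants (SD over 20 libraries each). The mitochondrial sum was 0.144 to 0.545 times the nuclear sum within a pull-down library, against 7.39 to 10.7 times within a supernatant library.

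**Figure D1:**
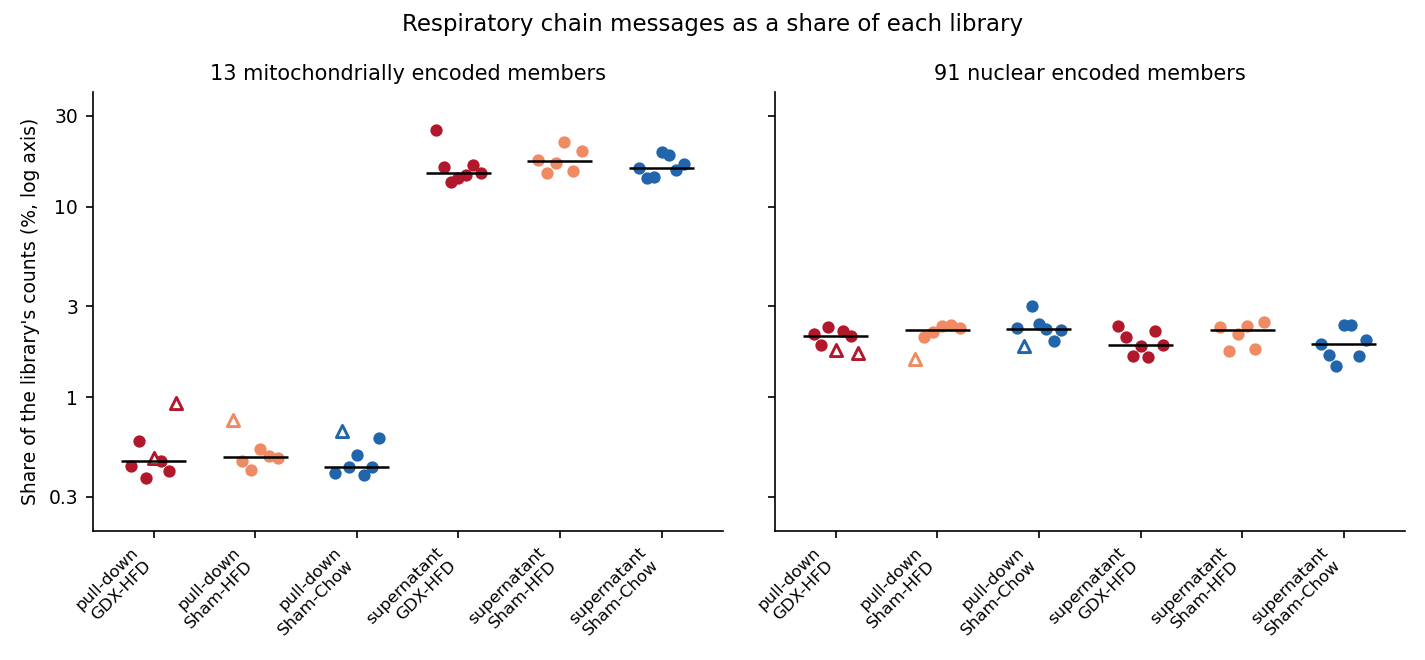
Share of each library's counts (percent, log axis) taken by the 13 mitochondrially encoded members (left) and the 91 nuclear encoded members (right), 1 point per library, by fraction and treatment group; black lines are group medians and open triangles are the 4 pull-downs with more than 10% Gm42418. The mitochondrial share lies under 1% in the pull-downs and above 13% in the supernatants in all 3 treatment groups, while the nuclear share lies between 1.46% and 3.002% throughout.

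The split was present in each treatment group. In GDX-HFD samples the mitochondrial members took 0.375% at the lowest, 0.465% at the median and 0.936% at the highest in the pull-downs, against 13.5%, 15.1% and 25.3% in the supernatants. In Sham-HFD samples the same 3 values were 0.416%, 0.488% and 0.764% in the pull-downs, against 15.0%, 17.3% and 22.0% in the supernatants. In Sham-Chow samples they were 0.390%, 0.433% and 0.664% in the pull-downs, against 14.1%, 16.0% and 19.3% in the supernatants. Within a fraction the 3 treatment groups overlapped, and within a treatment group the fractions did not. The nuclear members had medians of 2.09% in GDX-HFD, 2.26% in Sham-HFD and 2.27% in Sham-Chow pull-downs, against 1.89%, 2.25% and 1.92% in the supernatants of the same groups.

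All 13 mitochondrial members were lower in the pull-downs by the edgeR quasi-likelihood test with Benjamini-Hochberg adjustment over 15629 genes, in which 43.7% of all genes were called lower and 43.1% higher and the median log2 fold change of all genes was -0.0088. The median of the 13 was -4.52 on the log2 scale of pull-down over supernatant. For each of them all 20 pull-down libraries lay below all 20 supernatant libraries, which held for 18.9% of all genes tested. That each was lower in 20 of 20 same-numbered pairs follows from this order and adds nothing to it. Summed over the neuron markers, the same pull-downs held 0.0762% to 0.128% of their counts, against 0.501% to 0.634% in the supernatants, and the oligodendrocyte markers held 0.0773% to 0.1397%, against 0.717% to 1.24%. The part of these cell types in the mitochondrial difference was not tested.

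mt-Cytb, the only mitochondrially encoded subunit of complex III, had the largest difference of the 13. Its level ran from 263 CPM through a median of 353 to 642 in the pull-downs, against 16494 through 21105 to 36576 CPM in the supernatants, a log2 fold change of -5.92 ± 0.13 (SE, adjusted p = 1.68e-33, edgeR). By treatment its medians were 323 CPM in GDX-HFD, 359 in Sham-HFD and 357 in Sham-Chow pull-downs, against 19074, 22669 and 21099 CPM in the supernatants of the same groups. The 3 groups overlapped within each fraction.

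mt-Nd4, a proton-pumping subunit of complex I, was the most abundant member in the supernatants. It ran from 368 CPM through a median of 697 to 985 in the pull-downs, against 28812 through 36950 to 79419 CPM in the supernatants, a log2 fold change of -5.81 ± 0.15 (SE). Its highest supernatant, GDX-HFD sample 2, stood apart from the other 6 supernatants of that group, which reached 41573 CPM. mt-Nd6, a membrane subunit of complex I, had the smallest difference: 6.32, 10.3 and 18.7 CPM (lowest, median and highest) in the pull-downs, against 38.4, 59.2 and 94.6 CPM in the supernatants, a log2 fold change of -2.48 ± 0.12 (SE). The summed count of mt-Nd6 was 14865, against 173391 for the next lowest mitochondrial member. How well the capture of polyadenylated RNA recovers the mt-Nd6 message was not tested. Its level and fold change may therefore not be comparable with those of the other mitochondrial members. The fractions of mt-Nd6 did not overlap either.

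The other subunits of complex I encoded in the organelle lay between these, with log2 fold changes of -4.93 ± 0.10 for mt-Nd3, -4.87 ± 0.18 for mt-Nd2, -4.37 ± 0.16 for mt-Nd1, -4.22 ± 0.14 for mt-Nd5 and -3.34 ± 0.16 for mt-Nd4l (SE). The catalytic core of complex IV, mt-Co1, mt-Co2 and mt-Co3, showed -4.06 ± 0.08, -5.06 ± 0.10 and -4.11 ± 0.15. mt-Co1, which binds the heme groups where oxygen is reduced, ran from 627 to 1153 CPM in the pull-downs, against 10955 to 16359 CPM in the supernatants. The complex V subunits mt-Atp6, part of the proton channel, and mt-Atp8 showed -5.46 ± 0.14 and -4.52 ± 0.13. The 13 values thus were not equal. They also differed between genes of a shared message: mt-Nd4l was less reduced than mt-Nd4, and mt-Atp8 less than mt-Atp6. The ends of mt-Nd4l and mt-Atp8 are not the ends of their messages, and where their tags lie was not measured here. Their summed counts were 200876 and 173391, against 8389143 for mt-Nd4 and 4484988 for mt-Atp6. These differences are between the counts assigned to each gene, not between separate messages.

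The ribosomal RNAs of the mitochondrion, which belong to no complex, moved the same way. mt-Rnr1 and mt-Rnr2 had log2 fold changes of -3.72 ± 0.25 and -4.17 ± 0.31 (SE), and together they took 0.252% to 0.691% of the pull-down counts, against 1.39% to 13.4% of the supernatant counts. Across libraries the mitochondrial members were more variable in the pull-downs than the nuclear ones. The SD of the library medians on the log2 scale was 0.388 for the mitochondrial and 0.145 for the nuclear members in the pull-downs. In the supernatants it was 0.154 and 0.162.

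The nuclear members did not move as 1 block. Of the 84 that passed the filter on low counts, 46 were higher in the pull-downs, 18 were lower and 20 were not called, beside 43.1% and 43.7% of all genes, and their median log2 fold change was 0.23. Without pseudogenes and non-subunits, 46 of 81 were higher and 16 lower. Of the 84, 80 passed the filter within each fraction, and 43 of these were higher and 17 lower; Cox4i2, Cox7b2 and Cox8b passed within the pull-downs only and Ndufa4l2 within the supernatants only. All 20 pull-downs lay above all 20 supernatants for 9 nuclear members, beside 18.3% of all genes, and below them for 4, beside 18.9%. The 7 members that did not pass were the 6 pseudogenes and Cox8c.

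**Figure D2:**
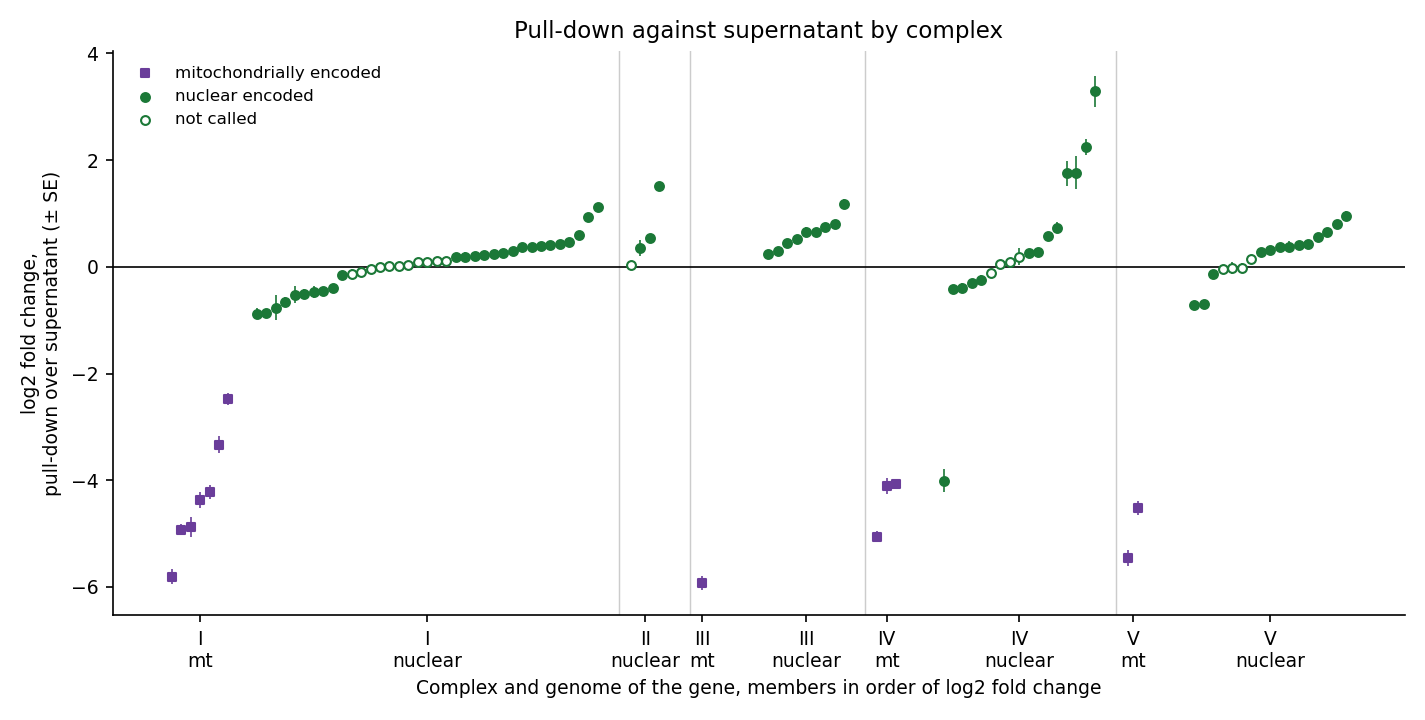
Log2 fold change of pull-down over supernatant (± SE) for each tested member, grouped by complex and by the genome that encodes it (mt, mitochondrial), and ordered by size within each group; filled points passed an adjusted p under 0.05 and open points did not. The mitochondrial members lie between -5.92 and -2.48, the 9 nuclear members of complex III all lie above 0, and Cox6a2 is the nuclear member that lies among the mitochondrial ones.

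In complex I, 16 of 37 nuclear members were higher in the pull-downs and 10 were lower, with a median log2 fold change of 0.095. The share higher was near that of all genes, 43.1%, and the share lower was under the 43.7% of all genes. Of the 36 that passed the filter within each fraction, which leaves out Ndufa4l2, 16 were higher and 9 lower, with a median of 0.10. Ndufa7, an accessory subunit, ran from 183 CPM through a median of 206 to 249 in the pull-downs, against 81.4 through 94.5 to 109 CPM in the supernatants, a log2 fold change of 1.11 ± 0.05 (SE, adjusted p = 3.53e-24, edgeR). Its fractions did not overlap. Ndufb11, an accessory subunit of the membrane arm, and Ndufs1, the largest iron-sulfur subunit, were higher by 0.93 ± 0.06 and 0.61 ± 0.07.

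Ndufa5 and Ndufb9, accessory subunits of the peripheral and membrane arms, were lower. Ndufb9 ran from 106 CPM through 144 to 169 in the pull-downs, against 212 through 259 to 326 CPM in the supernatants, a log2 fold change of -0.87 ± 0.05 (SE). Ndufa5 ran from 78.6 CPM through 177 to 248.6 in the pull-downs, against 249.1 through 311 to 397 CPM in the supernatants, a log2 fold change of -0.88 ± 0.11. The fractions of Ndufb9 were well apart, and those of Ndufa5 nearly touched. Ndufa6, another accessory subunit, was lower by -0.65 ± 0.08. The core subunits Ndufs8 and Ndufv1, at 0.43 ± 0.06 and 0.47 ± 0.07, rest on counts that differ strongly between the deposited tables. Their summed counts were 51369 and 63276 in the count table, against 343 and 33.3 recovered from the second table.

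In complex II, which is wholly nuclear encoded, 3 of 4 subunits were higher in the pull-downs, beside 43.1% of all genes. The 4 were far from equal. Sdhc, a membrane anchor that binds heme and ubiquinone, ran from 245 CPM through a median of 309 to 408 in the pull-downs, against 70.1 through 108 to 148 CPM in the supernatants, a log2 fold change of 1.51 ± 0.07 (SE, adjusted p = 5.62e-23, edgeR). Sdha, the catalytic flavoprotein, ran from 322 through 362 to 408 CPM, against 209 through 247 to 322 CPM, a log2 fold change of 0.54 ± 0.05. For both genes every pull-down lay above every supernatant, though only narrowly for Sdha, and this held for 18.3% of all genes.

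Sdhb, the iron-sulfur subunit that hands electrons from Sdha to the membrane, averaged 217 ± 30.8 CPM in pull-downs, against 211 ± 35.3 CPM in supernatants (SD over 20 libraries each), was higher in 10 pairs and lower in 10, and was not called at a log2 fold change of 0.04 ± 0.07 (SE, adjusted p = 0.607, edgeR). Sdhd, the other anchor, was the least abundant, with 23.5 ± 7.29 CPM in pull-downs, against 18.4 ± 6.66 CPM in supernatants. Its call at 0.35 ± 0.15 (adjusted p = 0.0281, edgeR) was lost with DESeq2, its size factors, library totals or the second table, where it lay between 0.26 and 0.29.

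In complex III all 9 tested nuclear members were higher in the pull-downs, beside 43.1% of all genes. Their median log2 fold change was 0.65, against -0.0088 for all genes. Uqcr11, a small accessory subunit, ran from 233 CPM through a median of 330 to 584 in the pull-downs, against 118.6 through 151 to 180 CPM in the supernatants, a log2 fold change of 1.18 ± 0.08 (SE, adjusted p = 1.66e-16, edgeR). Cyc1, the cytochrome c1 that passes electrons to cytochrome c, ran from 72.2 CPM through 91.5 to 164, against 45.6 through 56.5 to 64.2 CPM, a log2 fold change of 0.79 ± 0.07. Neither gene's fractions overlapped, and all pull-downs lay above all supernatants for 18.3% of all genes.

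The other 7 were Uqcr10 at 0.74 ± 0.07, the Rieske iron-sulfur protein Uqcrfs1 at 0.65 ± 0.10, the core proteins Uqcrc1 and Uqcrc2 at 0.65 ± 0.06 and 0.29 ± 0.05, the hinge protein Uqcrh at 0.51 ± 0.06, Uqcrq at 0.46 ± 0.06 and Uqcrb at 0.23 ± 0.05 (log2 fold change, SE). The nuclear members of complex III made up 0.240% ± 0.0317 of a pull-down library, against 0.167% ± 0.0252 of a supernatant library (SD over 20 libraries each). mt-Cytb, their mitochondrially encoded partner in the same complex, made up 0.0352% ± 0.00906, against 2.24% ± 0.563.

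In complex IV, 8 of 17 nuclear members were higher and 5 were lower, beside 43.1% and 43.7% of all genes. Of the 14 that passed the filter within each fraction, 5 were higher and 5 lower. Both extremes were genes that come as alternative copies of 1 subunit. Cox6a2, the copy known from heart and skeletal muscle, ran from 0.165 CPM through a median of 0.630 to 1.85 in the pull-downs, against 5.50 through 13.8 to 27.5 CPM in the supernatants, a log2 fold change of -4.01 ± 0.22 (SE, adjusted p = 4.24e-20, edgeR). Every pull-down lay below every supernatant. Its widely expressed counterpart Cox6a1 was far more abundant and even between the fractions, with 474 ± 52.5 CPM in pull-downs, against 459 ± 76.8 CPM in supernatants (SD over 20 libraries each), and a log2 fold change of 0.04 ± 0.06 (adjusted p = 0.511, edgeR).

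Among the other minor copies, Cox6b2 and Cox7a1 went the opposite way to Cox6a2. Cox6b2, the copy known from testis, ran from 4.11 CPM through 7.87 to 11.5 in the pull-downs, against 0.479 through 1.67 to 2.96 CPM in the supernatants, a log2 fold change of 2.25 ± 0.14 (SE), and the fractions did not overlap. Cox7a1, the heart and muscle copy, was higher by 0.73 ± 0.10. Cox8b, Cox4i2 and Cox7b2 were near the limit of detection in the supernatants and entered the test only through the pull-downs, where they are high, so their values are given as a description. Cox8b, known from heart and muscle, ran from 0.396 CPM through 1.46 to 2.38 in the pull-downs, against 0 through 0.0997 to 0.511 CPM in the supernatants, on 378 counts over all 40 libraries. Cox4i2, known from lung, averaged 0.693 ± 0.333 CPM in pull-downs, against 0.203 ± 0.185 CPM in supernatants, on 201 counts, and Cox7b2, known from testis, 1.92 ± 1.07 CPM, against 0.575 ± 0.246 CPM, on 591 counts (SD over 20 libraries each).

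Their common counterparts differed less: Cox6b1 at -0.11 ± 0.08 (adjusted p = 0.177) and Cox7a2 at 0.09 ± 0.06 (adjusted p = 0.153) were not called by the edgeR quasi-likelihood test with Benjamini-Hochberg adjustment, and Cox4i1 and Cox8a were higher by 0.27 ± 0.06 and 0.58 ± 0.08 (SE). Endothelial and mural markers took 0.0176% to 0.152% and 0.0144% to 0.0613% of the pull-down counts, against 0.00636% to 0.0121% and 0.00676% to 0.0113% of the supernatant counts, and neuron markers moved the opposite way. Their part in the levels of the minor copies was not tested. Cox5a, a subunit on the matrix side, and Cox7a2l, an assembly factor of supercomplexes, were lower by -0.41 ± 0.05 and -0.39 ± 0.08. Ndufa4 was also lower, at -0.40 ± 0.08. Its minor relative Ndufa4l2, which entered the test only through the supernatants, averaged 0.530 ± 0.309 CPM in pull-downs, against 0.857 ± 0.297 CPM in supernatants.

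**Figure D3:**
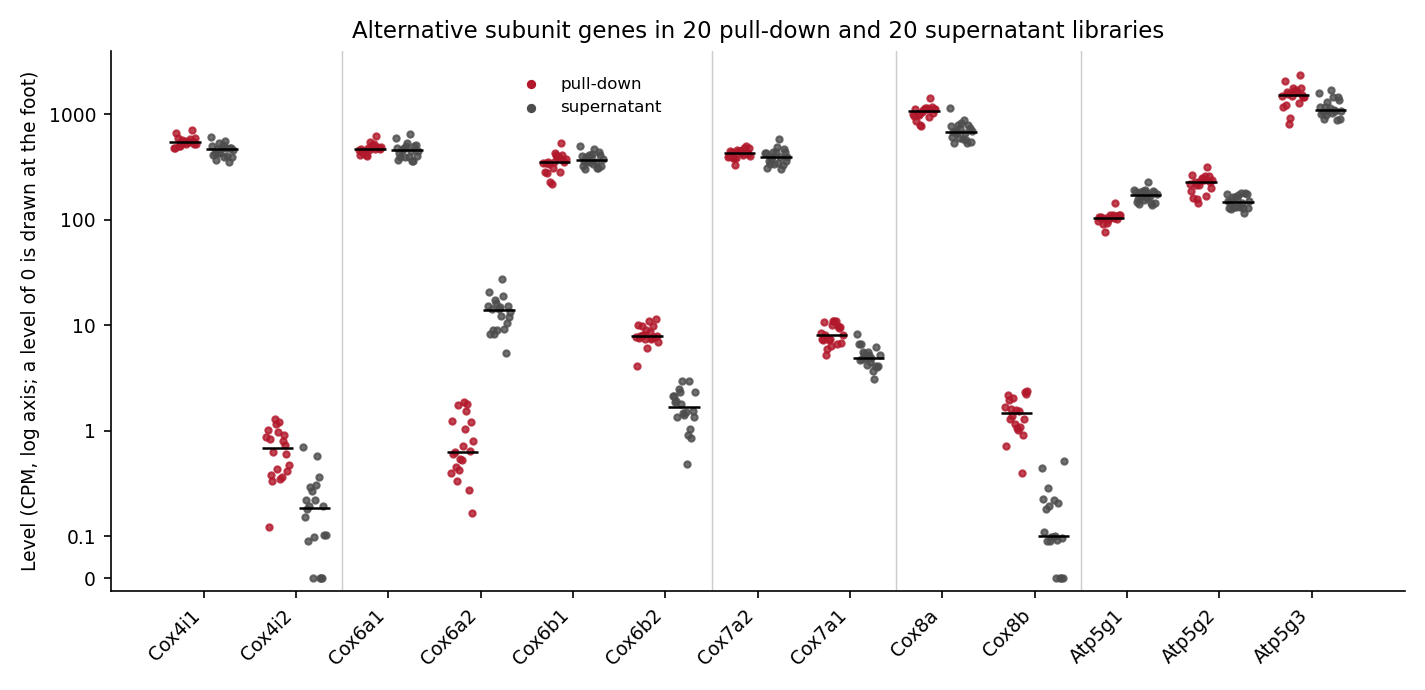
Levels (CPM, log axis, with 0 drawn at the foot) of the alternative copies of complex IV subunits and of the 3 genes for the complex V c subunit, 1 point per library, pull-down left of supernatant, with a black line at the median. Cox6a2 is lower in the pull-downs while Cox6b2 is higher, Cox8b and Cox4i2 lie near 0 in the supernatants, and Atp5g1 is lower while Atp5g2 and Atp5g3 are higher.

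In complex V, 10 of 17 tested members were higher and 3 were lower, beside 43.1% and 43.7% of all genes, with a median log2 fold change of 0.31. Atp5c1 and Atp5e, the gamma and epsilon subunits of the rotor stalk, were higher by 0.96 ± 0.09 and 0.81 ± 0.06 (SE), and Atp5d, the delta subunit, by 0.64 ± 0.07. Atp5c1 averaged 359 ± 23.7 CPM in pull-downs, against 186 ± 41.8 CPM in supernatants (SD over 20 libraries each), with no overlap. Atp5sl, which is no subunit of complex V, was lower by -0.69 ± 0.08, and Atp5h, a peripheral stalk subunit, was lower by only -0.14 ± 0.06 (adjusted p = 0.0368, edgeR), a call that was lost in 13 of the 20 fits that leave out 1 sample and in 3 other alternatives.

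The 3 genes Atp5g1, Atp5g2 and Atp5g3 encode the same mature c subunit of the membrane ring with different import sequences, and they did not move together. Their promoters are shown because the mature product is shared and the control regions are not. The 120 bases before the start are given 5′ to 3′ on the strand of the gene, from RefSeq on GRCm38.p6, with the letters of an NRF1 motif in capitals.
Atp5g1, chr11:96075632-96075751, minus strand: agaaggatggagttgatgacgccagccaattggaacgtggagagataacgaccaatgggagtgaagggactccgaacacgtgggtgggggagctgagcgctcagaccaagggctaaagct
Atp5g2, chr15:102671048-102671167, minus strand: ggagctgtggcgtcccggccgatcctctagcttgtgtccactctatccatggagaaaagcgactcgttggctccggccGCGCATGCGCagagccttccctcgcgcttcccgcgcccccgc
Atp5g3, chr2:73911327-73911446, minus strand: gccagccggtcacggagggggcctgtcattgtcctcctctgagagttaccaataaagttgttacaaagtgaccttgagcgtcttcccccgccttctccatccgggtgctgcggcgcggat
Atp5g2 held the motif with its first base at position -42, and these letters were not found in the other 2 windows.

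Atp5g1 ran from 76.6 CPM through a median of 105 to 145 in the pull-downs, against 138 through 171 to 230 CPM in the supernatants, a log2 fold change of -0.71 ± 0.06 (SE, adjusted p = 6.26e-15, edgeR), and was lower in 19 of 20 pairs. Atp5g2 ran from 144 through 227 to 314 CPM, against 115 through 149 to 180 CPM, a log2 fold change of 0.56 ± 0.08, and was higher in 19 pairs. Atp5g3, the most abundant of the 3 in both fractions, ran from 807 through 1530 to 2337 CPM, against 875 through 1091 to 1703 CPM, a log2 fold change of 0.38 ± 0.10, and was higher in 15 pairs. The fractions overlapped for all 3 genes, for Atp5g1 through the pull-down of Sham-Chow sample 12 at 145 CPM.

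NRF1 and ETS-family factors such as GABP are known to act at promoters of respiratory chain genes. Of the 91 nuclear members, 69 matched a RefSeq promoter by symbol, among them Atp5f1, Atp5s and Atp5sl under the symbols Atp5pb, Dmac2l and Dmac2. The 69 include Atp5s, Atp5sl and Cox7a2l, which are not subunits of their complex. The NRF1 letters, those in capitals in the Atp5g2 promoter, occurred on either strand in the 250 bases before the start of 4 of these 69, or 5.80%, against 0.877% of all 27025 genes in the promoter table. The ETS letters CCGGAAG occurred in 12, or 17.4%, against 7.83% of all genes, and 1 member, Cox6a1, held both at separate places. Among complex III members 2 of 5 held the ETS letters, Uqcr11 and Uqcrh. The ETS letters stood in 7 of 35 members that were higher in the pull-downs and in 1 of 15 that were lower, Atp5h. The rest of the 12, Atp5l, Cox6a1, Cox6b1 and Ndufb6, were not called between the fractions. A link between the letters and the fraction was not tested, and a match of letters is not a binding site.

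Within each treatment group the pattern over the chain was alike for the mitochondrial members and looser for the nuclear ones. All 13 mitochondrial members were lower in the pull-downs of GDX-HFD, Sham-HFD and Sham-Chow, with medians of -4.50, -4.45 and -4.66 and with 39.2%, 38.2% and 38.7% of all genes lower. Of the 84 nuclear members, 32 were higher and 17 lower in GDX-HFD, 36 higher and 13 lower in Sham-HFD, and 48 higher and 11 lower in Sham-Chow, beside 37.7%, 37.6% and 37.3% of all genes higher. The nuclear medians were 0.14, 0.16 and 0.34, against all-gene medians of -0.016, -0.0056 and -0.013. The Sham-HFD count higher was 21 with library totals and its count lower 21 with the second table, and the Sham-Chow count lower was 7 with no filter or without sample 19. The Sham-HFD nuclear median ran from 0.047 to 0.23 over the alternatives, fits that leave out 1 sample aside.

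Genes around the chain, from lists of assembly factors, mitochondrial gene expression, import and feeding pathways, differed between the fractions in both directions, as did all genes (43.1% higher and 43.7% lower). Of 48 assembly factors 17 were higher and 20 lower, among them Taco1, an activator of mt-Co1 translation, at 2.13 ± 0.16 and Atpaf1, which assembles the complex V head, at -1.82 ± 0.07 (log2 fold change, SE). Of 30 tested genes for mitochondrial DNA upkeep and expression 13 were higher and 10 lower. Lrpprc, which stabilises mitochondrial messages, was lower by -1.57 ± 0.15, the mitochondrial RNA polymerase Polrmt by -0.64 ± 0.09, and the transcription factor Tfam was higher by 0.22 ± 0.07.

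Among 11 regulators of mitochondrial biogenesis 7 were higher, with Gabpa, a subunit of GABP, at 2.57 ± 0.13 and the coactivator Ppargc1a at 1.47 ± 0.09, and 4 were lower, with the related coactivator Ppargc1b at -1.63 ± 0.09 and the nuclear receptor Esrrg at -2.07 ± 0.11. Electron carriers and entry enzymes were higher in 10 of 13 cases, led by proline dehydrogenase Prodh at 4.02 ± 0.14 and the electron transfer flavoprotein Etfa at 2.86 ± 0.09. The inhibitor of complex V Atpif1 was lower by -2.01 ± 0.06, and cytochrome c, Cycs, by -0.30 ± 0.06. Of 20 import genes 7 were higher and 12 lower (median -0.34), and of 19 tricarboxylic acid cycle genes 11 were higher and 4 lower (median 0.35), beside the same 43.1% and 43.7% of all genes. The cycle genes were led by Suclg2, a subunit of GTP-forming succinyl-CoA ligase, at 4.35 ± 0.16 and the NADP-dependent isocitrate dehydrogenase Idh2 at 2.64 ± 0.12.

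No respiratory chain gene, mitochondrial or nuclear, passed the threshold between treatment groups in either fraction. The edgeR quasi-likelihood test with Benjamini-Hochberg adjustment called 0 members in all 6 contrasts, and DESeq2 and limma voom also called 0. In the pull-downs, 0% of all genes were called for Sham-HFD against Sham-Chow, 0% for GDX-HFD against Sham-HFD and 0.0142% for GDX-HFD against Sham-Chow, a contrast that shares each of its groups with another. In the supernatants 0% were called in each. At an unadjusted p under 0.05, the contrasts of diet held 0 members in the pull-downs, beside 1.71% of all genes, and 0 in the supernatants, beside 1.41%. Those of orchiectomy on the high-fat diet held 2 in the pull-downs, beside 6.53% of all genes, and 1 in the supernatants, beside 3%. Both counts depended on single samples. In the pull-downs the number of nuclear members was 22, all lower in GDX-HFD, without Sham-HFD sample 1, 11 without the 4 pull-downs rich in Gm42418, 6 without GDX-HFD sample 14, 4 without GDX-HFD sample 2 or 10, 0 without Sham-HFD sample 16 or 18, and 1 to 3 without any other sample. In the supernatants it was 11, all lower in GDX-HFD, without GDX-HFD sample 2, and 0 to 3 without any other sample. Of all 13979 genes in the pull-down fit without the 4 rich in Gm42418, 508 were lower and 631 higher at such a p. For the fits that leave out 1 sample, the share of all genes is not given here.

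GDX-HFD against Sham-Chow was the contrast with the most small p-values: 25 nuclear members, all lower in GDX-HFD, and 0 mitochondrial members in the pull-downs, beside 11.1% of all genes in either direction and 5.14% lower. In the supernatants 1 nuclear and 1 mitochondrial member had such a p, beside 2.26% of all genes. In the pull-downs 79 of 83 nuclear members lay below 0, with a median of -0.18 on the log2 scale beside 0.0040 for all genes, and 10 of 13 mitochondrial members lay above 0, with a median of 0.050 whose sign depended on the setting (-0.036 to 0.078). Of all 14059 genes, 6908 lay below 0. In these pull-downs endothelial markers took 0.0686% ± 0.0497 of the counts in GDX-HFD, against 0.0306% ± 0.0169 in Sham-Chow, and Gm42418 7.67% ± 6.03, against 4.76% ± 4.53 (SD, n = 7 each). The log2 ratio of summed astrocyte markers, pull-down over supernatant, was 3.991 ± 0.63 in GDX-HFD, against 4.403 ± 0.54 in Sham-Chow. The part of these RNAs in the 25 was not tested. The 25 fell to 2 without Sham-Chow sample 12, to 5 without GDX-HFD sample 22, to 9 without GDX-HFD sample 11, to 11 without Sham-Chow sample 15, to 15 without Sham-Chow sample 23 and to 16 without GDX-HFD sample 6, and to 5 with library totals, and it was 37 without GDX-HFD sample 10, 34 without Sham-Chow sample 8 and 33 without Sham-HFD sample 1. Without the 4 pull-downs rich in Gm42418 the count was 26, beside 676 of all 13979 genes lower at such a p. The pull-downs that remained also held Gm42418. The nuclear median without sample 12 was -0.12, with 72 of 83 below 0. The pull-down of sample 12 held the highest nuclear share of all, 3.002%, and its supernatant the lowest, 1.46%.

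The smallest p among the members was that of the complex III subunit Uqcr10. It ran from 236 CPM through a median of 290 to 300 in GDX-HFD pull-downs, from 227 through 335 to 366 in Sham-HFD and from 297 through 335 to 424 in Sham-Chow, and GDX-HFD lay below Sham-Chow by -0.29 ± 0.10 (log2 fold change, SE, unadjusted p = 0.0086, adjusted p = 0.369, edgeR). Uqcrq had 299, 309 and 324 CPM (lowest, median and highest) in GDX-HFD, 317, 334 and 356 in Sham-HFD and 322, 346 and 431 in Sham-Chow, with -0.18 ± 0.07 (adjusted p = 0.395, edgeR). The GDX-HFD and Sham-Chow pull-downs overlapped narrowly for both. The complex IV subunits Cox6c and Cox6a1 had -0.27 ± 0.10 and -0.21 ± 0.08.

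For orchiectomy on the high-fat diet, the 2 members with an unadjusted p under 0.05 in the pull-downs with all samples were Ndufs6, an accessory subunit of complex I, and Sdha. Ndufs6 had 128, 129 and 160 CPM (lowest, median and highest) in GDX-HFD against 138, 154 and 182 CPM in Sham-HFD, a log2 fold change of -0.19 ± 0.08 (SE, adjusted p = 0.741, edgeR). Sdha had 322, 342 and 361 CPM in GDX-HFD against 357, 368 and 397 CPM in Sham-HFD, with -0.13 ± 0.06 (adjusted p = 0.741, edgeR). The ranges overlapped for both. In the supernatants the member was Sdhc, with 70.1, 98.2 and 127 CPM in GDX-HFD against 102, 118 and 148 CPM in Sham-HFD, and -0.28 ± 0.12 (adjusted p = 0.945, edgeR).

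Over the members as a whole, the nuclear median lay below that of all genes in all 3 pull-down contrasts. It was -0.081 for Sham-HFD against Sham-Chow, with 79 of 83 members below 0, and -0.11 for GDX-HFD against Sham-HFD, with 68 of 83 below 0, beside -0.0089 and 0.012 for all genes. Of all 14059 genes, 7417 and 6690 lay below 0 in these contrasts. For Sham-HFD against Sham-Chow the nuclear median was -0.015, with 52 of 83 below 0, without Sham-Chow sample 12, -0.028, with 59 of 83 below 0, without Sham-HFD sample 1, and -0.13 without Sham-Chow sample 8. In the supernatants the same medians were 0.12, with 6 of 81 below 0, and -0.10, with 75 of 81 below 0. The all-gene medians there were -0.0012 and 0.018, with 7355 and 6759 of all 14628 genes below 0. Supernatants with 8.16% or more mitochondrial ribosomal RNA held 1.46% to 1.86% of nuclear members, and those with 6.20% or less held 1.89% to 2.49%. Each treatment group held supernatants of both kinds, and the part of this RNA in the supernatant medians was not tested. The mitochondrial medians were 0.089 and -0.046 in the pull-downs, against 0.099 and -0.13 in the supernatants, and leaving out 1 sample turned the sign of both pull-down values (-0.052 to 0.15 and -0.27 to 0.086). The contrasts of 1 fraction share groups, and the nuclear median for diet had opposite signs in the 2 fractions.

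**Figure D4:**
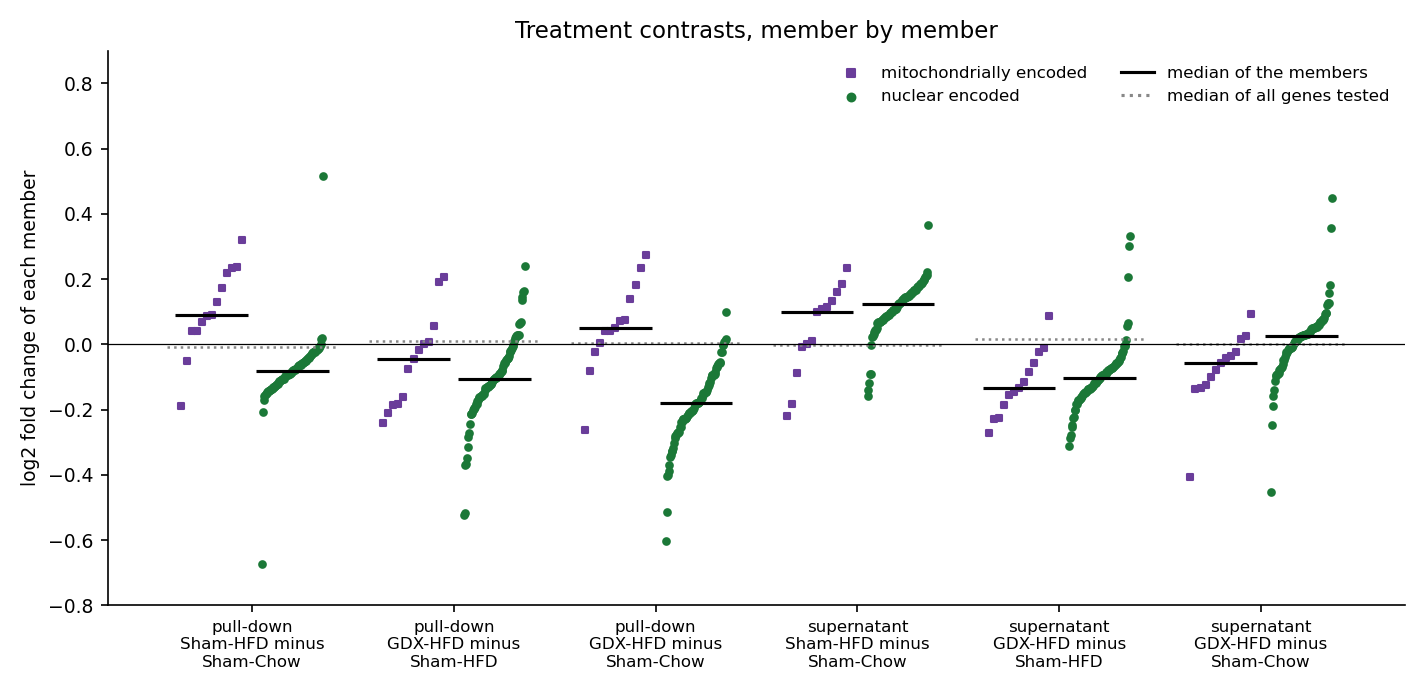
Log2 fold change of each tested member in the 6 treatment contrasts, 3 in the pull-downs and 3 in the supernatants, with mitochondrially encoded members as squares and nuclear ones as points; black lines are the medians of the members and dotted lines those of all genes tested. The nuclear medians lie between -0.18 and 0.12, and no member passed the threshold in any contrast.

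The interactions asked whether an effect differed between pull-down and supernatant. By the edgeR quasi-likelihood test with Benjamini-Hochberg adjustment, 0 members were called for diet by fraction, beside 0% of all genes, and 0 for orchiectomy by fraction, beside 0.0064%. At an unadjusted p under 0.05 there were 3 nuclear members for diet, beside 2.55% of all genes, and 1 for orchiectomy, beside 4.43%. The 3 were Atp5g1 at -0.32 ± 0.14, Ndufs8 at -0.32 ± 0.15 and Cox5a at -0.27 ± 0.13 (log2 difference of fold changes, SE, adjusted p = 0.970, edgeR). For diet by fraction 77 of 84 nuclear members lay below 0, beside 7913 of all 15629 genes. The nuclear median was -0.19, against 0.014 for the mitochondrial members and -0.0042 for all genes. Leaving out 1 sample gave nuclear medians from -0.25 to -0.11. For orchiectomy by fraction the medians were -0.014 for the nuclear and 0.12 for the mitochondrial members. The sign of both, and of the mitochondrial median for diet by fraction, depended on the setting. The 1 member was Cox7a1 at -0.53 ± 0.24 (adjusted p = 0.941, edgeR).

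Cox7a1 was also the member with the smallest p between GDX-HFD and Sham-Chow supernatants, where it had 4.71, 5.58 and 8.31 CPM (lowest, median and highest) in GDX-HFD and 3.06, 4.12 and 6.22 CPM in Sham-Chow, with 0.45 ± 0.16. mt-Nd6 was the mitochondrial member with an unadjusted p under 0.05 there, with 41.8, 49.5 and 63.9 CPM in GDX-HFD, 38.4, 62.6 and 77.5 CPM in Sham-HFD and 43.5, 65.8 and 94.6 CPM in Sham-Chow, and GDX-HFD lay below Sham-Chow by -0.41 ± 0.16. The groups overlapped for both genes, and their adjusted p by edgeR were 0.9999.

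Setting each pull-down against the supernatant of its own number, the summed mitochondrial members lay at -4.99 ± 0.43 on the log2 scale and the summed nuclear members at 0.18 ± 0.26 (SD, n = 20 samples). The mitochondrial ratios ran from -5.85 to -4.02, and the nuclear ratios from -0.30 to 0.87. By group the mitochondrial ratio averaged -4.96 ± 0.56 in GDX-HFD, -4.98 ± 0.37 in Sham-HFD and -5.03 ± 0.38 in Sham-Chow, and the nuclear ratio 0.096 ± 0.25, 0.12 ± 0.25 and 0.32 ± 0.26. These spreads exceeded the differences between the groups.

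The 4 samples whose pull-downs held more than 10% Gm42418 had a mitochondrial ratio of -4.35 ± 0.30 and the other 16 had -5.15 ± 0.28 (SD). Their pull-downs held 0.711% ± 0.190 of mitochondrial members, against 0.464% ± 0.069 in the other 16, and their neuron marker ratio was -2.16 ± 0.28, against -2.71 ± 0.22. Other marker ratios differed as well: 3.38 ± 0.29 against 4.45 ± 0.37 for astrocytes, 3.55 ± 0.55 against 1.84 ± 0.65 for endothelial cells, 2.44 ± 0.35 against 1.31 ± 0.30 for mural cells, -0.69 ± 0.56 against -2.21 ± 0.53 for red blood cells and -1.59 ± 0.32 against -2.19 ± 0.21 for microglia. The nuclear ratio was -0.042 ± 0.22 in the 4 and 0.24 ± 0.25 in the 16. The part of Gm42418 or of RNA from other cells in the mitochondrial level of these pull-downs was not tested. In the fit without these 4 samples all 13 mitochondrial members were lower in the pull-downs, beside 6940 of all 15686 genes.

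**Figure D5:**
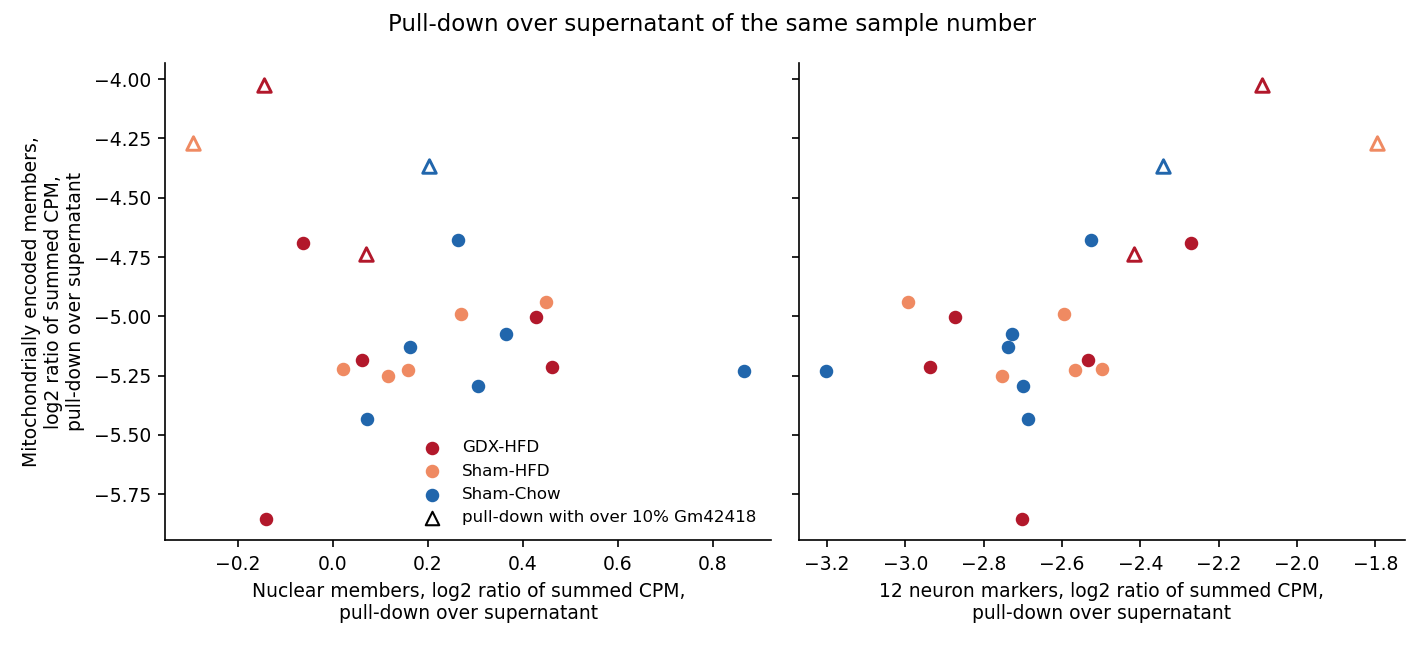
Log2 ratio of summed CPM, pull-down over supernatant of the same sample number, for the mitochondrially encoded members (vertical axis) against that of the nuclear members (left) and of 12 neuron markers (right), 1 point per sample; colours are treatment groups and open triangles are samples whose pull-down held more than 10% Gm42418. The 4 triangles have mitochondrial ratios of -4.74 and above, while the 3 treatment groups are mixed.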

How the data were processed

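Libraries came from polyadenylated RNA captured with the Dynabeads mRNA DIRECT kit and prepared with the QuantSeq 3′ FWD kit, per the labels' protocols. Trim Galore 0.6.4, Salmon 1.9.0 and the build GRCm38 are named in the submitters' processing notes. Annotation, strand setting and the summing of transcripts were not found in those notes. The authors deposited estimated counts per gene for 26792 symbols and 40 libraries, with fractional values in 12.7% of the non-zero cells. Salmon shares out reads between similar sequences, so members with pseudogenes or other near copies are uncertain: over 90% of the non-zero values were not whole for Atp5j, Atp5l, Atp5l2-ps, Cox5b, Cox7c, Uqcrb, mt-Co1, mt-Co2 and mt-Nd2. The authors also deposited a second table, named TPM, whose signal is not scaled by gene length. For 11 members it does not match the counts, most for Ndufs8, Ndufv1 and Ndufa11 (64859 against 18540), and it was used only as an alternative.

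Rounded counts entered the edgeR quasi-likelihood test (version 4.0.16, R 4.3.3) after TMM scaling and filterByExpr (minimum count 10), robustly fitted: all 40 libraries with 6 group means between the fractions and for interactions, and 20 libraries with 3 group means within each fraction. A gene was called where its p, adjusted by Benjamini-Hochberg over all genes, was under 0.05. The filter kept 84 nuclear members over all libraries, 83 in the pull-downs and 81 in the supernatants, and all 13 mitochondrial members. A standard error (SE) is that of the log2 fold change. Levels are counts scaled by TMM to a common total, not by length, since each message gives a tag near its 3′ end. PCR copies cannot be told apart, so the spread between libraries sets the error.

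Alternatives were DESeq2 1.42.0 and its size factors, library totals, TMM without mitochondrial genes and Gm42418, no filter, limma voom (limma 3.58.1), limma on log2 (second table + 1), a replicate block, and leaving out samples. The second table and the members passing the filter within each fraction were added after seeing the data. The fits were tested on simulated data. Members and gene lists were chosen with earlier results of these data known. Genes named are all mitochondrial members, the 3 highest and 3 lowest nuclear members of each complex at 5 CPM or more, complex II, the isoform pairs, the 2 members with the smallest p per direction in each contrast, and the extremes of each list; others that the text names were chosen after their values were seen. Positions are GENCODE M21 on GRCm38, which held 103 of the 104 members, and promoters are from RefSeq GRCm38.p6.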

Additional observations from a re-analysis of the deposited data

Results flagged for a closer look

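A library is named here where its gap to the nearest other library of its group was large for the range of that group (Dixon's test at 95%). Over 180 groups tested, 38 such values were found, and chance alone marks about 1 in 20 groups. They gathered in a few libraries.

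The pull-down of GDX-HFD sample 22 held 0.936% of mitochondrial members, against 0.375% to 0.591% in the other 6 pull-downs of its group. It was the highest of its group for mt-Co1 at 1153 CPM, mt-Co2 at 706, mt-Co3 at 2015, mt-Cytb at 642, mt-Nd1 at 1398 and mt-Nd3 at 188 CPM. The pull-down of Sham-HFD sample 1 held 0.764% of mitochondrial members, against 0.416% to 0.533% in the other 5. It was highest for mt-Atp6 at 721 CPM, mt-Co3 at 1354, mt-Nd1 at 1149.99, mt-Nd2 at 1286, mt-Nd3 at 152, mt-Nd4l at 224 and mt-Nd5 at 313 CPM, and lowest for Uqcr11 at 233, Atp5g2 at 144 and Atp5g3 at 920 CPM. Gm42418 took more than 10% of the counts in both pull-downs, and the part of this RNA in their values was not tested.

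In the supernatants, GDX-HFD sample 2 held 25.3% of mitochondrial members, against 13.5% to 16.5% in the other 6. It was highest for mt-Atp6 at 35956 CPM, mt-Co2 at 21065, mt-Co3 at 18037, mt-Cytb at 36576, mt-Nd1 at 21381 and mt-Nd4 at 79419 CPM, and for the nuclear gene Atp5g3 at 1587 CPM. Sham-HFD sample 16 was highest of its group for mt-Co2 at 21107 CPM, and Sham-HFD sample 20 for Ndufa5 at 377 and Ndufb9 at 326 CPM. Sham-Chow sample 23 was highest for Cox8b at 0.511 CPM, against 0 to 0.204 CPM in the others.

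Among nuclear members in the pull-downs, Sham-Chow sample 12 was the highest of its group for Uqcr11 at 584, Cyc1 at 134, Atp5g1 at 145 and Cox6a1 at 626 CPM. GDX-HFD sample 10 was the highest of its group for Sdhc at 375 and Uqcr11 at 499.7 CPM, GDX-HFD sample 6 was lowest for Cox6b2 at 4.11 CPM, and Sham-HFD sample 13 was the highest of its group for Cyc1 at 109 CPM.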

How the results depend on the processing

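Between the fractions, all 13 mitochondrial members were called lower under every alternative run, with medians from -4.70 to -4.47, and nuclear medians ran from 0.13 to 0.27. No called result changed direction. Within treatment groups, Sham-HFD nuclear members higher were 21 with library totals (36 as reported), Sham-HFD nuclear members lower were 21 with the second table and limma (13 as reported), and Sham-Chow nuclear members lower were 7 with no filter (11 as reported); the cause was not tested. Leaving out 1 sample gave 7 to 13 for the last of these, with 7 without sample 19. With no filter the median of all genes shifted by -0.17. The calls of Atp5h and Ndufa11 were each lost in 13 of the fits that leave out 1 sample, and in 3 and 4 other alternatives, at -0.14 to -0.073 and -0.16 to -0.091. Sdhd lost its call in 3 leave-out fits (0.32 to 0.33), while Cox6b1 gained one in 3 alternatives and Cox7a2, Ndufb2 and Ndufs6 in 1 each.

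Between treatment groups 0 members were called under any alternative. The sign of the mitochondrial median depended on the setting for GDX-HFD against Sham-Chow pull-downs (-0.036 to 0.078), for diet by fraction (-0.069 to 0.034) and for orchiectomy by fraction (-0.050 to 0.20), and that of the nuclear median for orchiectomy by fraction (-0.047 to 0.059). Leaving out 1 sample also turned the nuclear median for GDX-HFD against Sham-Chow supernatants (-0.039 to 0.062).

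Pull-down and supernatant share sample numbers, but their deviations from group means correlated at -0.10 to 0.20 (median 0.027), over 0.1 in 5 of 20 pairs, and 4 samples correlated best with their own number. With the sample number as a replicate block, 13 mitochondrial members were lower, 45 nuclear members higher and 17 lower, and 0 were called in the interactions. The planned count test on the second table was not run, since its values do not come back as whole reads. Members under 1 CPM, such as Cox4i2, rest on few counts.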
